A study of Mus musculus with 2 samples.

Results

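The prostaglandin enzymes and receptors described here are 10 genes of the 32285 measured in single cells of the mouse choroid and retinal pigment epithelium (RPE). They were given as a list of symbols, by a rule with no threshold on their levels. Ptgs1 and Ptgs2 encode the cyclooxygenases COX-1 and COX-2, and Ptges, Ptgis and Ptgds encode the terminal synthases of prostaglandin E2, prostacyclin and prostaglandin D2. Ptger2 and Ptger4 encode the prostaglandin E2 receptors EP2 and EP4, Ptgir the prostacyclin receptor and Ptgfr the prostaglandin F receptor. Hpgd encodes the 15-hydroxyprostaglandin dehydrogenase that inactivates prostaglandins. The single group consisted of wild-type mice of the outbred ICR strain, 8 weeks old and with no treatment of the animals named in the labels. It was measured in 2 droplet libraries (10x 3' v3.1), each from the pooled choroids of 1 male and 1 female, and the mice of a pool were not separated here. The tissue had been dissociated enzymatically for hours before capture, with collagenase A and then trypsin. At least 1 UMI (unique molecular identifier, 1 counted RNA molecule) of a member was found in 7822 of the 8497 barcodes kept in library 1 and in 12910 of 13401 in library 2.

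Cyclooxygenases convert arachidonic acid, which phospholipases release from membranes, to the unstable intermediate prostaglandin H2. Terminal synthases turn that intermediate into separate prostaglandins, which leave the cell, act on G protein-coupled receptors of the same or of neighbouring cells and are then taken up and oxidised. COX-1 is generally made constitutively, while COX-2 is induced by cytokines, growth factors and stress. In the eye, prostaglandins are known for effects on vascular tone, vessel permeability, inflammation and intraocular pressure, and the prostaglandin F receptor is the target of glaucoma drugs.

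Start-site sequences were found for 9 of the 10 members in a RefSeq table (GRCm38.p6), Ptgis having no entry. The 250 bases before the RefSeq start are printed for 4 of these genes, both cyclooxygenases and the synthases of prostaglandin E2 and D2. That start can differ from the end of the GENCODE span given for a gene below. The printed Ptges and Ptgds windows lie inside those spans and not upstream of them. The Ptgs2 window lies at chr1:150099781-150100030 on the plus strand, the Ptgs1 window at chr2:36230176-36230425 on the plus strand, the Ptges window at chr2:30903298-30903547 on the minus strand and the Ptgds window at chr2:25469750-25469999 on the minus strand. Each is written 5′ to 3′ along its gene, with motif matches in capitals.
Ptgs2: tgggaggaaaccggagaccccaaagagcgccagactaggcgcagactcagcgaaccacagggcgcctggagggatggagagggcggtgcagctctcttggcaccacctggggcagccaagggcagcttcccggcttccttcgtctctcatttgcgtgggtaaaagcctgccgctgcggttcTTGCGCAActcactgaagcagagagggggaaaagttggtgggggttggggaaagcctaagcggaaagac
Ptgs1: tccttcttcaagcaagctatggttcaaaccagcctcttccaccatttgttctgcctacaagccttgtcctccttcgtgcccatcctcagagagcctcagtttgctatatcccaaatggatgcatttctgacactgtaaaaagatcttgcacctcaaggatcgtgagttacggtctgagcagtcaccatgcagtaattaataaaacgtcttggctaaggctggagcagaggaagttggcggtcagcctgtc
Ptges: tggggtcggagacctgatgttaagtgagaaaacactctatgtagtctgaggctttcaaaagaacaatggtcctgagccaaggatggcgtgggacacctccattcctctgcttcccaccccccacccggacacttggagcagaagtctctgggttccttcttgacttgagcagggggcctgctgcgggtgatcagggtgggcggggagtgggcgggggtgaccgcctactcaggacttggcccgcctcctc
Ptgds: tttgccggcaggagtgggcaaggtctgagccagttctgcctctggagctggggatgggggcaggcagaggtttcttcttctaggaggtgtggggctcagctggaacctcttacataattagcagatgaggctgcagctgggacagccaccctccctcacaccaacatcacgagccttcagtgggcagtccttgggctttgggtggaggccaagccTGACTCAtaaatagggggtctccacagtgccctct
Both strands were searched for 6 motifs. The capitals in Ptgs2, at bases -69 to -62 from the start, match the C/EBP pattern TTGCNNAA, found in 9.56% of 32851 windows of this length. The capitals in Ptgds, at bases -35 to -29, match the AP-1 pattern TGANTCA, found in 6.75% of windows. The CRE core TGACG (17.8% of windows), the E-box CACGTG (6.02%), the OTX pattern TAATCC (6.25%) and TATAAA (12.4%) were in none of the 4 windows. The windows of the other members, not printed, held no match to any of the 6 motifs. A match is a description of letters and not a measured site, and its absence says only that these letters are not in that window.

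Barcodes were assigned to 7 classes by 3 marker genes each, and 7874 and 12615 were assigned in libraries 1 and 2. Fibroblast-like barcodes numbered 3998 and 6232, melanocyte-like 1407 and 2251, RPE-like 304 and 903, endothelial-like 464 and 609, pericyte-like 1038 and 1425, smooth muscle-like 234 and 330 and macrophage-like 429 and 865. The median depth was 26253.5 and 19072 UMIs in RPE-like, 11464 and 10081 in melanocyte-like, 7837 and 8333 in fibroblast-like and 8871 and 7933 in endothelial-like barcodes. It was 8725 and 8408 in macrophage-like, 7415 and 7720 in smooth muscle-like and 5581.5 and 5779 in pericyte-like barcodes. Markers of a second class exceeded 25% of those of the first in 56.4% and 53.6% of smooth muscle-like and in 37.0% and 37.3% of pericyte-like barcodes, and whether these are shared or foreign RNA was not tested. RPE-like barcodes held high Lrat, Rdh5 and Ttr, but Best1, another RPE marker, was at an unscaled 0.205 and 0.458 CPM. The libraries shared 31 barcode sequences.

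Levels below are CPM (UMI counts of a gene summed over the barcodes of a class, relative to the total and scaled by TMM), for library 1 and then library 2. Reads came from 3' ends, so the values count molecules and do not grow with transcript length. Differences are log2 fold changes ± SE of a class against the mean of the other 6 (edgeR quasi-likelihood, library as block, Benjamini-Hochberg over 15146 genes). A call needed an adjusted p below 0.05 and a log2 difference of at least 1. The p-values rest on the variation left after the library block, pooled over the classes and moderated across genes. They cover only these 2 pooled libraries.

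Each class held a different set of the members. In fibroblast-like cells 9 of the 10 members were higher, against 17.1% of all genes tested, and Ptgds was lower, against 6.31%. Ptges, Ptgds and Ptgis were the 3 members higher in RPE-like cells (26.3% of all genes), and 6 members were lower there (23.5%). Melanocyte-like cells had only Ptgds higher (14.7%) and 7 members lower (11.3%). Endothelial-like cells had only Ptgs1 higher (15% of all genes) and 8 lower (19.5%). Pericyte-like cells had all 4 receptors higher (12.9%) and Ptgs1, Ptgds and Ptgis lower (9.26%). Smooth muscle-like cells had Ptgis, Ptger2 and Ptgir higher (12.4%) and Ptgs1 and Hpgd lower (7.29%). Macrophage-like cells had Ptgs1, Ptgs2, Ptger4 and Hpgd higher (19.8%) and Ptges, Ptgds, Ptgis and Ptgir lower (21.1%). Together these were 25 higher and 31 lower calls.

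**Figure D1:**
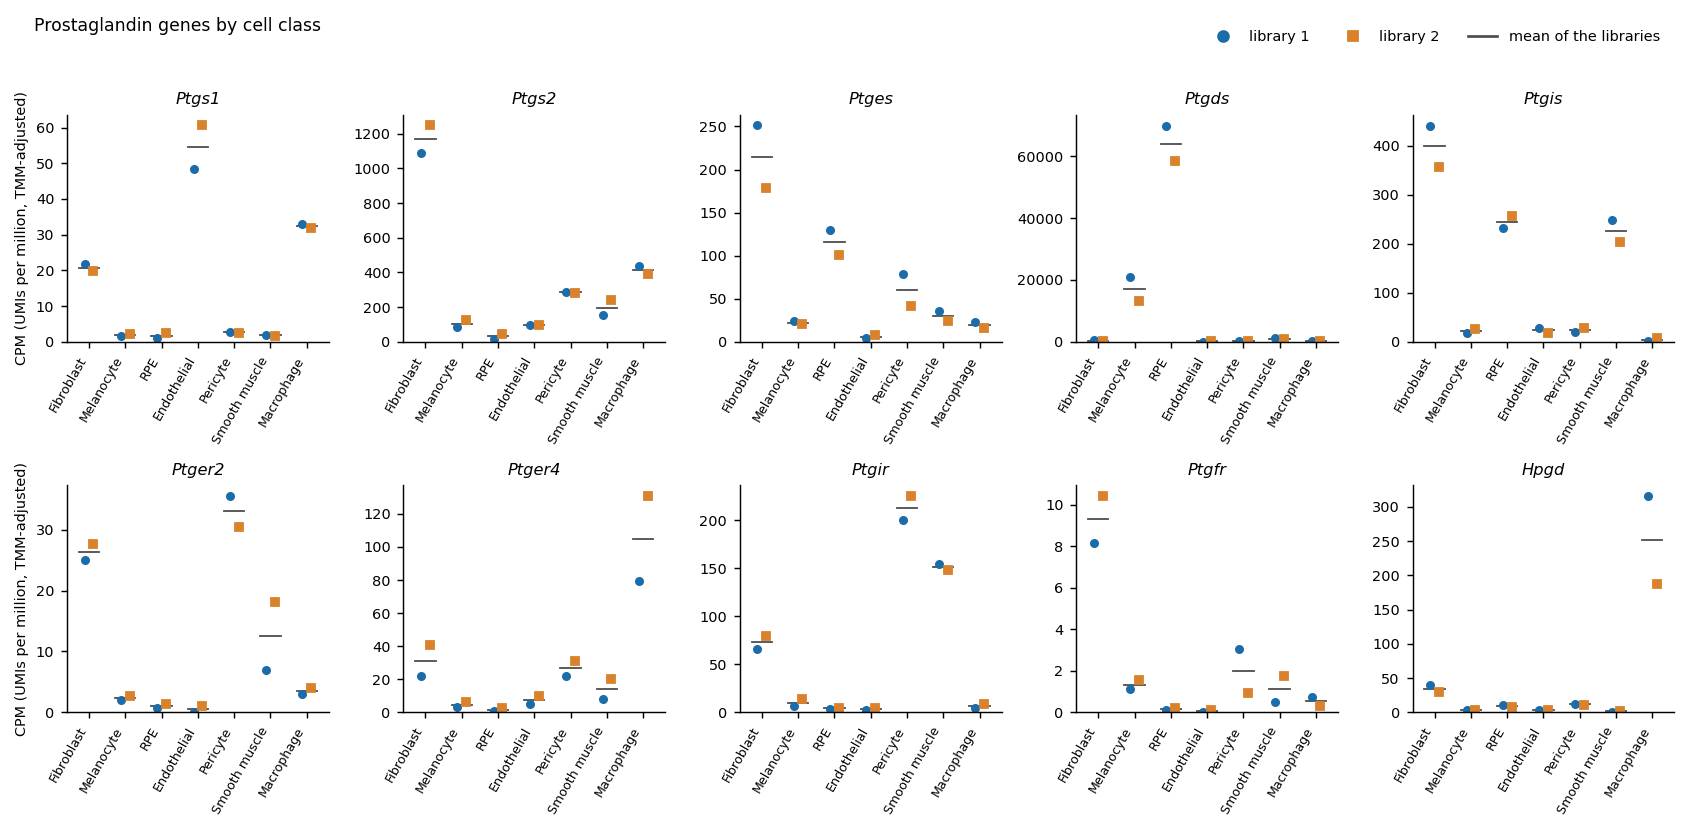
Level of each of the 10 members (CPM, TMM scale, vertical axis) in the 7 marker classes (horizontal axis). Points are the 2 libraries and the line is their mean. Ptgs2 and Ptges were highest in fibroblast-like, Ptgds in RPE-like, Ptgir in pericyte-like and Hpgd in macrophage-like cells.

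The cyclooxygenases were highest in different classes. Ptgs1 (chr2:36230426-36252272, plus strand, GRCm38) was at 48.4 and 60.6 CPM in endothelial-like, 33.1 and 32.0 in macrophage-like and 21.6 and 19.9 in fibroblast-like cells. In the other 4 classes Ptgs1 stayed between 0.948 and 2.71. The 3 higher classes did not overlap with one another or with the rest. Endothelial-like cells exceeded the mean of the others by 3.50 ± 0.15 (adjusted p = 3.0e-11), macrophage-like by 2.62 ± 0.18 (adjusted p = 5.52e-09) and fibroblast-like by 1.89 ± 0.15 (adjusted p = 9.51e-08). Each step of this order was then tested, with the order taken from the same data, so these p-values are too small here and for every member. A step is given as passed at an adjusted p below 0.05, also where it is smaller than the log2 difference of 1 that a call needs; over the 21 pairs of classes, 21% to 72.8% of all genes passed. Endothelial-like exceeded macrophage-like cells by 0.75 ± 0.21 (adjusted p = 0.00607), macrophage-like exceeded fibroblast-like cells by 0.63 ± 0.20 (adjusted p = 0.0143), and the drop from fibroblast-like to pericyte-like cells was 3.0 ± 0.26 (adjusted p = 6.18e-07). No step among the lower 4 classes passed. With free RNA subtracted, the step from endothelial-like to macrophage-like cells was as large (0.76) but did not pass (adjusted p = 0.0555).

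Ptgs2 (chr1:150100031-150108227, plus strand) was far more abundant. It was at 1089 and 1248 CPM in fibroblast-like, 438 and 391 in macrophage-like, 289 and 280 in pericyte-like and 154 and 241 in smooth muscle-like cells. Melanocyte-like cells had 83.2 and 127, endothelial-like cells 95.3 and 93.9 and RPE-like cells 16.9 and 46.6. Both fibroblast-like values lay above all others and both RPE-like values below all others. The fibroblast-like excess was 3.07 ± 0.21 (adjusted p = 3.67e-06) and the macrophage-like excess 1.35 ± 0.24 (adjusted p = 0.00105). RPE-like cells were lower by 3.04 ± 0.33 (adjusted p = 3.60e-05), endothelial-like by 1.15 ± 0.29 (adjusted p = 0.00821) and melanocyte-like by 1.01 ± 0.28 (adjusted p = 0.0146). The endothelial-like call was lost when doublets were removed (log2 difference -0.67, adjusted p = 0.0634), and the melanocyte-like call without the filter on low counts (-0.94, adjusted p = 0.0628). The unscaled sum of Ptgs1, Ptgs2, Ptges and Ptgis, which Ptgs2 cannot exceed, fell in other settings. It went from 386 and 410 to 156 and 254 CPM in pericyte-like cells without barcodes of mixed class markers. In melanocyte-like cells it went from 127 and 212 to 39.5 and 38.9 with doublets removed. Fibroblast-like exceeded macrophage-like cells by 1.48 ± 0.34 (adjusted p = 0.00506), and the steps from macrophage-like down to endothelial-like cells did not pass (adjusted p 0.0616 to 0.783). The step from endothelial-like to RPE-like cells was 1.62 (adjusted p = 0.00321).

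Detection per barcode was read beside the levels. A Ptgs2 UMI was found in 70.1% (exact 95% binomial interval 68.7% to 71.5%) and 78.8% (77.8% to 79.8%) of fibroblast-like barcodes. After each barcode was thinned to 2000 UMIs the shares were 53.4% and 62.5%. Shallower barcodes, 1 to 56 per class and library, were left out of thinned shares. Macrophage-like barcodes had 44.3% and 42.3%, or 26.4% and 27.3% thinned. RPE-like barcodes had 9.21% (6.21% to 13%) and 11.5% (9.51% to 13.8%), or 1.69% and 4.30% thinned, although their median depth was 26253.5 and 19072 against 7837 and 8333 in fibroblast-like barcodes. Detection thus separated the classes in the same direction as the levels. The 10% of barcodes with most Ptgs2 UMIs held 100% and 98.2% of them in melanocyte-like, 100% and 98.5% in RPE-like and 95.7% and 94.6% in endothelial-like cells. Where at most 10% of barcodes hold a UMI, this share is 100% by its definition and restates the low detection. For Ptgs1 the detected share was 36.0% and 39.6% of endothelial-like barcodes (9.71% and 12% thinned) against 1.64% and 1.40% of pericyte-like ones (0.680% and 0.284% thinned).

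COX-2 is an inducible enzyme, and the summed level of an inflammatory list is given beside it, without TMM scaling. The 10 inflammatory genes (Cxcl1, Cxcl2, Cxcl5, Il6, Il1b, Il11, Csf3, Tnf, Ccl2, Nfkbia) summed to 29850 and 26927 CPM in macrophage-like, 7554 and 5015 in pericyte-like, 4093 and 2973 in fibroblast-like and 307 and 284 in RPE-like cells. They were thus highest in macrophage-like cells, while Ptgs2 was highest in fibroblast-like cells. Their part in the Ptgs2 levels was not tested, and no undissociated sample was used here.

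Ptges (chr2:30889471-30929863, minus strand), the inducible prostaglandin E2 synthase that works with COX-2, was highest in the same class as Ptgs2 and second in a class that had little of it. Its level was 251 and 178 CPM in fibroblast-like and 130 and 101 in RPE-like cells. Pericyte-like cells had 79.2 and 41.1, smooth muscle-like cells 35.7 and 24.4, melanocyte-like cells 23.6 and 20.2, macrophage-like cells 23.0 and 15.4 and endothelial-like cells 4.39 and 7.45. Library 1 was higher in every class but the endothelial-like. The fibroblast-like excess was 2.91 ± 0.14 (adjusted p = 6.38e-09) and the RPE-like excess 1.87 ± 0.15 (adjusted p = 2.25e-07), while endothelial-like cells were lower by 3.01 ± 0.25 (adjusted p = 4.64e-07). Fibroblast-like exceeded RPE-like cells by 0.88 ± 0.22 (adjusted p = 0.00288), and by 1.0 with doublets removed (adjusted p = 0.103) and 0.92 with free RNA subtracted (adjusted p = 0.145), which did not pass. RPE-like exceeded pericyte-like cells by 0.99 (adjusted p = 0.00181). A Ptges UMI was found in 81.9% and 71.7% of RPE-like and 55.6% and 57.2% of fibroblast-like barcodes. Thinning reversed that order, to 22.7% and 18.3% against 28.6% and 27.1%, and left 0.662% and 1.5% in endothelial-like barcodes.

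Ptgis (chr2:167191805-167240604, minus strand), the prostacyclin synthase, was shared by fibroblast-like, RPE-like and smooth muscle-like cells. It was at 441 and 357, 232 and 256 and 248 and 203 CPM in these classes. The remaining classes ranged from 17.5 to 27.6, except macrophage-like cells with 1.86 and 6.93. The groups of 3 and 4 classes did not overlap. Fibroblast-like cells were higher by 3.38 ± 0.20 (adjusted p = 6.22e-07), RPE-like by 2.54 ± 0.20 (adjusted p = 2.36e-06) and smooth muscle-like by 2.41 ± 0.22 (adjusted p = 2.40e-05). The step from fibroblast-like to RPE-like cells missed the threshold (0.72 ± 0.30, adjusted p = 0.0567) and passed with doublets removed (adjusted p = 0.0033). RPE-like and smooth muscle-like cells differed by 0.11 (adjusted p = 0.771), and smooth muscle-like exceeded pericyte-like cells by 3.27 ± 0.34 (adjusted p = 0.000191). With free RNA subtracted, the lower calls of melanocyte-like, endothelial-like and pericyte-like cells were lost. The differences of -1.53 and -1.43 in the former classes turned to 0.29 and 0.0825 (adjusted p = 0.925 and 1), and that of -1.41 in pericyte-like cells was -1.92 (adjusted p = 1). A Ptgis UMI was in 30.5% and 39.3% of thinned RPE-like, 34.5% and 34.7% of fibroblast-like, 31.4% and 30.4% of smooth muscle-like and 0.249% and 1.20% of macrophage-like barcodes.

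Ptgds (chr2:25466709-25470046, minus strand), the prostaglandin D2 synthase that is also a secreted carrier of small lipids, reached the highest level of any member. It reached 69954 and 58369 CPM in RPE-like and 20926 and 13271 in melanocyte-like cells. A median of 5.92% and 5.56% of all UMIs of an RPE-like barcode were Ptgds, and 1.95% and 1.32% in a melanocyte-like barcode. RPE-like cells exceeded the mean of the others by 6.75 ± 0.32 (adjusted p = 1.08e-06) and melanocyte-like cells by 4.55 ± 0.32 (adjusted p = 2.35e-05), with 1.89 ± 0.54 between them (adjusted p = 0.0204). That step was 2.0 and did not pass with free RNA subtracted (adjusted p = 0.277). Outside these classes Ptgds was at 69.7 to 1064 CPM, and 31.8% to 51.0% of barcodes in library 1 and 64.9% to 74.7% in library 2 held a UMI. Free RNA, measured in barcodes of at most 100 UMIs, had 11288 and 11990, so the unscaled levels outside RPE-like and melanocyte-like cells were 0.634% to 9.66% of it. With free RNA subtracted, 0 Ptgds UMIs were left in endothelial-like, pericyte-like and macrophage-like cells. The share estimated from rod genes was larger there than their Ptgds level allows, so the subtraction removed too much. Their fitted differences then depend on the prior count and are no measure of fold, and the lower calls were lost (adjusted p = 1). The fibroblast-like difference of -1.81 turned to 2.74 in the same setting (adjusted p = 0.420). In smooth muscle-like cells, at 1064 and 962 CPM, 97.3% and 91.0% of the Ptgds UMIs lay in 10% of the barcodes. Ciliary epithelium markers (Pax6, Optc, Pcp4) summed to an unscaled 71.6 and 227 CPM in smooth muscle-like cells, and their part in this was not tested.

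The receptors had other profiles, with pericyte-like and smooth muscle-like cells prominent. Ptgir (chr7:16906490-16910905, plus strand), whose product relaxes vascular muscle through cyclic AMP, was at 200 and 225 CPM in pericyte-like, 154 and 148 in smooth muscle-like and 65.7 and 79.7 in fibroblast-like cells. The other 4 classes had 2.76 to 13.7, with no overlap. The excess was 3.82 ± 0.13 in pericyte-like (adjusted p = 7.42e-11), 3.25 ± 0.15 in smooth muscle-like (adjusted p = 1.22e-09) and 2.00 ± 0.14 in fibroblast-like cells (adjusted p = 7.00e-08). Pericyte-like and smooth muscle-like values did not overlap, but the step of 0.49 between them did not pass (adjusted p = 0.117). It passed without the filter on low counts (0.56, adjusted p = 0.0430) and when barcodes with markers of a second class were removed (1.01, adjusted p = 0.00103). Smooth muscle-like exceeded fibroblast-like cells by 1.07 (adjusted p = 0.00125). A Ptgir UMI was in 53.9% and 61.4% of pericyte-like barcodes (30.2% and 35.0% thinned) against 2.56% and 3.70% of macrophage-like ones (0% and 1.33% thinned).

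Ptger4 (chr15:5206661-5244187, minus strand), an EP receptor that raises cyclic AMP, was highest in macrophage-like cells, with 79.1 and 131 CPM. Fibroblast-like cells had 22.0 and 40.4, pericyte-like cells 22.2 and 30.8 and smooth muscle-like cells 7.93 and 20.4. Endothelial-like cells had 5.04 and 10.0, melanocyte-like cells 3.09 and 5.99 and RPE-like cells 0.829 and 2.48. Library 2 was the higher one in all 7 classes, and macrophage-like cells were above every other class in both libraries. The macrophage-like excess was 3.48 ± 0.12 (adjusted p = 2.33e-12), with 1.76 ± 0.17 over fibroblast-like cells (adjusted p = 3.43e-07). Fibroblast-like and pericyte-like cells were called higher, by 1.43 ± 0.12 and 1.19 ± 0.14 (adjusted p = 1.55e-07 and 5.28e-06), and the step between them did not pass (adjusted p = 0.378). A Ptger4 UMI was in 24.9% and 43.0% of macrophage-like barcodes, or 9.23% and 17.0% thinned.

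Ptger2 (chr14:44988195-45003820, plus strand), the other cyclic AMP-raising EP receptor measured, did not follow Ptger4 into macrophage-like cells. It was at 35.6 and 30.5 CPM in pericyte-like, 25.0 and 27.7 in fibroblast-like and 6.94 and 18.1 in smooth muscle-like cells. Macrophage-like cells had 2.97 and 3.94, melanocyte-like cells 2.1 and 2.68 and RPE-like cells 0.711 and 1.34. Endothelial-like cells had 0 UMIs in library 1 and 10 in library 2. For library 1, 0 of 464 barcodes allows a share of up to 0.647% of barcodes with a UMI. That limit covers counting error only and does not bound the share of cells that express the gene. The excess was 3.22 ± 0.23 in pericyte-like (adjusted p = 2.26e-07), 2.84 ± 0.21 in fibroblast-like (adjusted p = 2.80e-07) and 1.65 ± 0.34 in smooth muscle-like cells (adjusted p = 0.00236). The step from pericyte-like to fibroblast-like cells did not pass (0.33, adjusted p = 0.384), but it did when barcodes with markers of a second class were removed (adjusted p = 0.0361).

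Ptgfr (chr3:151796502-151837630, minus strand) was the rarest member and was found mainly in fibroblast-like cells, at 8.17 and 10.4 CPM. Pericyte-like cells had 3.03 and 0.917, from 19 and 10 UMIs, and melanocyte-like cells 1.11 and 1.56. Endothelial-like cells held 0 and 1 Ptgfr UMIs, RPE-like cells 1 and 4, smooth muscle-like cells 1 and 6 and macrophage-like cells 2 in each library. The fibroblast-like excess was 4.18 ± 0.30 (adjusted p = 2.78e-08), and the step to pericyte-like cells 2.38 ± 0.42 (adjusted p = 0.000437). The pericyte-like call of 1.40 ± 0.51 (adjusted p = 0.0353) did not pass with a minimum of 10 class marker UMIs (1.23, adjusted p = 0.0931), without mixed barcodes (1.86, adjusted p = 0.112) or with free RNA subtracted (2.72, adjusted p = 0.0750). These differences were not all smaller than the first. The lower calls of RPE-like and endothelial-like cells, which rest on these few UMIs, also did not pass with free RNA subtracted (adjusted p = 1).

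Hpgd (chr8:56294585-56321043, plus strand), the inactivating enzyme, was concentrated in macrophage-like cells, at 316 and 188 CPM. Fibroblast-like cells had 40.3 and 28.9, pericyte-like cells 12.6 and 11.2 and RPE-like cells 10.3 and 7.10. Melanocyte-like, endothelial-like and smooth muscle-like cells ranged from 0.991 to 3.79. The macrophage-like values did not overlap with any other class, in an order that each library showed alike for the 4 leading classes. Macrophage-like cells were higher by 5.28 ± 0.13 (adjusted p = 6.82e-14) and fibroblast-like cells by 1.96 ± 0.15 (adjusted p = 3.98e-08), with 2.84 ± 0.19 between them (adjusted p = 9.79e-09). The drop from fibroblast-like to pericyte-like cells was 1.51 (adjusted p = 4.58e-05). A Hpgd UMI was in 53.4% and 48.7% of macrophage-like barcodes (30.7% and 22.7% thinned) and in 0.855% and 1.52% of smooth muscle-like ones, where thinning left 0%.

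Set as sums, the synthesis genes among the members outweighed the receptor genes among them in every class as the classes were defined. These sums are the CPM of the 5 synthesis genes and of the 4 receptors, not scaled by TMM. Other genes of the pathway are not in them. Among those, on the TMM scale, Tbxa2r had a mean of 20.7 CPM in endothelial-like cells and Hpgds 386 in macrophage-like cells. RPE-like cells lay at one end, with 60877 and 54261 of synthesis and 4.10 and 8.25 of receptors, a log2 ratio of 13.26 ± 0.82 (SD, n = 2). Melanocyte-like cells had 21290 and 16321 against 13 and 29.0, a log2 ratio of 9.91 ± 1.09. Pericyte-like cells lay at the other end, with 522 and 744 against 258 and 336, a log2 ratio of 1.08 ± 0.09. The pericyte-like ratio was -0.30 and 0.51 in libraries 1 and 2 with mixed barcodes removed and 0.49 and -0.21 with free RNA subtracted, so its sign then differed between the libraries. Between them were endothelial-like cells at 4.74 ± 0.31, fibroblast-like at 3.99 ± 0.30, smooth muscle-like at 3.04 ± 0.16 and macrophage-like at 2.69 ± 0.40. No test was made of these sums, and they compare RNA molecules and not enzyme or receptor activity.

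The high ratios came with Ptgds. Without it the log2 ratio was 5.90 ± 0.57 in RPE-like, 3.98 ± 0.70 in endothelial-like, 3.70 ± 0.27 in fibroblast-like and 3.08 ± 0.30 in melanocyte-like cells. It was 2.06 ± 0.61 in macrophage-like, 1.34 ± 0.04 in smooth muscle-like and 0.44 ± 0.21 in pericyte-like cells. Pericyte-like cells held 258 and 336 CPM of receptors and 386 and 410 of synthesis genes other than Ptgds. With mixed barcodes removed the relation turned over, to 275 and 356 of receptors against 156 and 254 of synthesis, a log2 ratio of -0.82 and -0.49. Fibroblast-like cells had the highest synthesis sum without Ptgds, 1707 and 2004, and receptors at 114 and 176. With doublets removed, the receptor sum fell to 0.873 and 2.16 in RPE-like and to 4.10 and 7.05 in melanocyte-like cells. The melanocyte-like synthesis sum without Ptgds also fell, from 127 and 212 to 39.5 and 38.9, so most UMIs of either sum lay in barcodes called doublets in that class.

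**Figure D2:**
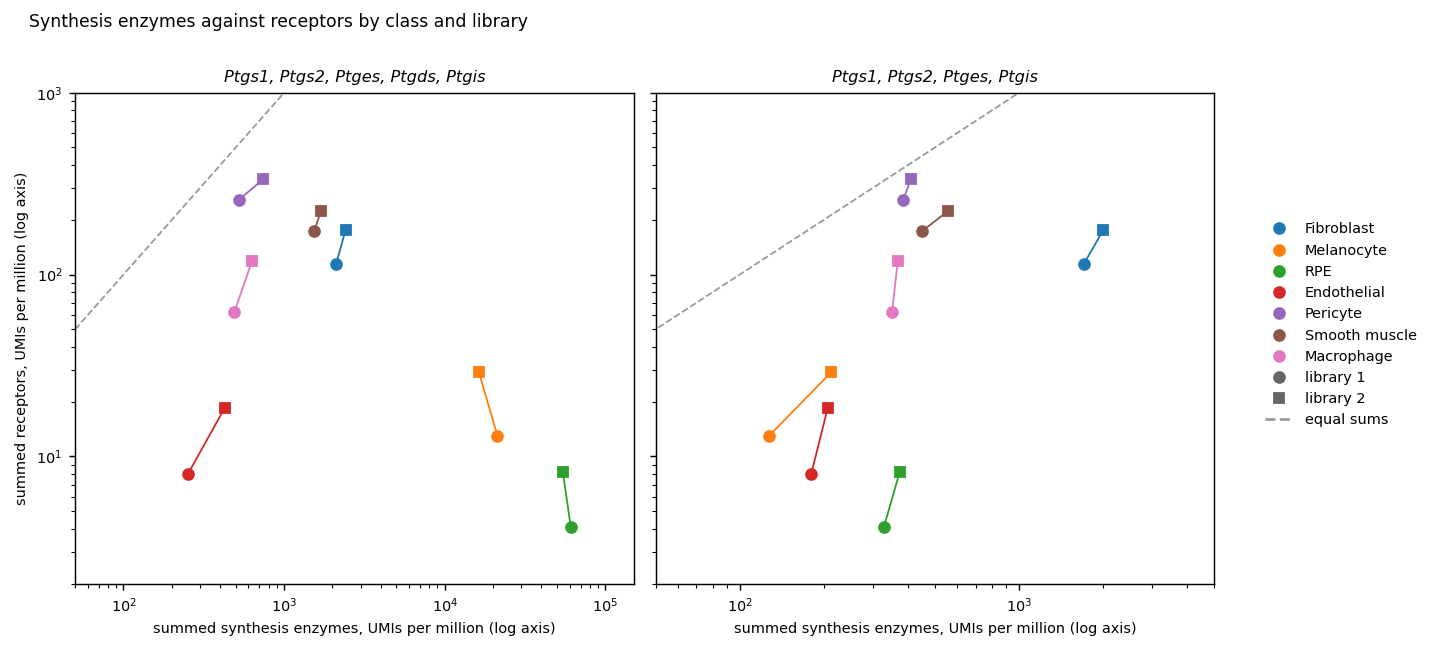
Summed receptor CPM against summed synthesis CPM for the 7 classes in the 2 libraries, both axes logarithmic, with Ptgds in the synthesis sum and without it. The dashed line marks equal sums. Without Ptgds, pericyte-like cells lie nearest to the line and RPE-like cells farthest from it.

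The sums were made of different genes in different classes. Among synthesis genes other than Ptgds, Ptgs2 made up 60.4% and 69.2% in fibroblast-like, 74.1% and 79.8% in pericyte-like and 88.3% and 87.8% in macrophage-like cells. Ptgis made up 61.0% and 63.0% in RPE-like cells, and Ptgs1 27.6% and 33.5% in endothelial-like cells. Ptgir was 76.7% and 78.3% of receptor UMIs in pericyte-like and 54.3% and 50.4% in fibroblast-like cells, and Ptger4 was 90.3% and 90.9% in macrophage-like and 64.6% and 62.1% in endothelial-like cells. At the level of single barcodes thinned to 2000 UMIs, a synthesis gene other than Ptgds and a receptor were found together in 17.6% and 24.2% of fibroblast-like barcodes. A further 60.6% and 58.1% had synthesis alone. In pericyte-like barcodes 28.5% and 34.0% had a receptor alone and 9.13% and 9.16% had both.

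Fibroblast-like cells were divided further by 7 marker sets, of which a barcode needed 3 UMIs, leaving 1313 and 2160 barcodes in none. Each subset was set against the mean of the other 6 in a fit of 11968 genes. Ptgs2 was at 2307 and 2219 CPM in the Cxcl5-Csf3-Il11 subset, 1659 and 1693 in the Tfpi2-Tcf21 subset and 1038 and 1334 in the Crabp2-Ephb1 subset. The Ltbp2-Comp subset had 908 and 999, the Pi16-Dpt-Clec3b subset 671 and 721, the Kera-Thbs4 subset 579 and 717 and the Angptl7-Cilp2 subset 193 and 312. The leading subsets and the last stood apart from the rest without overlap. The differences were 1.56 ± 0.10 for Cxcl5-Csf3-Il11 (adjusted p = 9.96e-07), 1.05 ± 0.10 for Tfpi2-Tcf21 (adjusted p = 5.86e-06) and -2.16 ± 0.13 for Angptl7-Cilp2 (adjusted p = 3.46e-07). The step between the leading subsets did not pass (0.44, adjusted p = 0.0572). The inflammatory list summed to 10736 and 7449 CPM in Cxcl5-Csf3-Il11, which 3 of its genes define, to 6797 and 3834 in Tfpi2-Tcf21 and to 1098 and 663 in Angptl7-Cilp2. Its part in the Ptgs2 levels was not tested.

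Receptors and synthases did not move as 1 unit across these subsets. Ptgir was at 109 and 136 CPM in Cxcl5-Csf3-Il11 and 107 and 117 in Tfpi2-Tcf21 (1.37 ± 0.09 and 1.23 ± 0.09 higher), against 18.4 to 98.3 elsewhere. Ptger4 was at 48.1 and 81.3 in Tfpi2-Tcf21 and 41.4 and 71.0 in Cxcl5-Csf3-Il11 (2.03 ± 0.21 and 1.79 ± 0.20 higher), and at 6.98 and 3.84 in Angptl7-Cilp2 (2.09 lower on the log2 scale). Ptges was called higher only in Cxcl5-Csf3-Il11, at 519 and 342 (1.59 ± 0.18, adjusted p = 0.000685). Ptgis went the other way in Tfpi2-Tcf21, at 84.6 and 63.5 against 273 to 696 in the other subsets, a difference of -2.66 ± 0.14 (adjusted p = 6.71e-09). The prostacyclin receptor was thus among its highest, and prostacyclin synthase at its lowest, in the same subset. Hpgd was highest in Angptl7-Cilp2, where Ptgs2 was lowest, at 117 and 113 (2.04 ± 0.28, adjusted p = 0.00128), and was at 12.4 and 17.5 in Cxcl5-Csf3-Il11 (-1.30, adjusted p = 0.0362). The latter did not pass without the filter on low counts (-1.26, adjusted p = 0.0802) or with mixed barcodes removed (-1.33, adjusted p = 0.0715).

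Fewer calls fell to the remaining members. Ptgds was higher in Kera-Thbs4 cells, at 1332 and 2278 CPM (2.81 ± 0.50, adjusted p = 0.00994), and RPE markers summed to 340 and 548 there. With doublets removed that difference was -0.44 (adjusted p = 0.687), and it did not pass with free RNA subtracted (adjusted p = 0.139). Ptger2 was higher in Tfpi2-Tcf21 by 1.04, Ptgfr was lower there by 1.24 on the log2 scale (adjusted p = 0.0170), and Ptgs1, Ptges, Ptger2, Ptger4 and Ptgir were lower in Kera-Thbs4. In all, 10 calls were higher and 12 lower, in 4 of the 7 subsets. Of all genes tested, 9.58% were higher and 7.91% lower in Tfpi2-Tcf21, 3.88% and 0.869% in Cxcl5-Csf3-Il11, 5.87% and 6.15% in Angptl7-Cilp2 and 3.18% and 2.61% in Kera-Thbs4. In the other 3 subsets edgeR called 0 members. There 2.46% of all genes were higher and 3.85% lower in Ltbp2-Comp, 2.92% and 1.86% in Crabp2-Ephb1 and 3.26% and 1.01% in Pi16-Dpt-Clec3b. At an unadjusted p below 0.05, 2 members were higher and 1 lower in Ltbp2-Comp, 6 higher and 0 lower in Crabp2-Ephb1 and 2 higher and 4 lower in Pi16-Dpt-Clec3b, and DESeq2 called 1 member lower in Ltbp2-Comp.

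**Figure D3:**
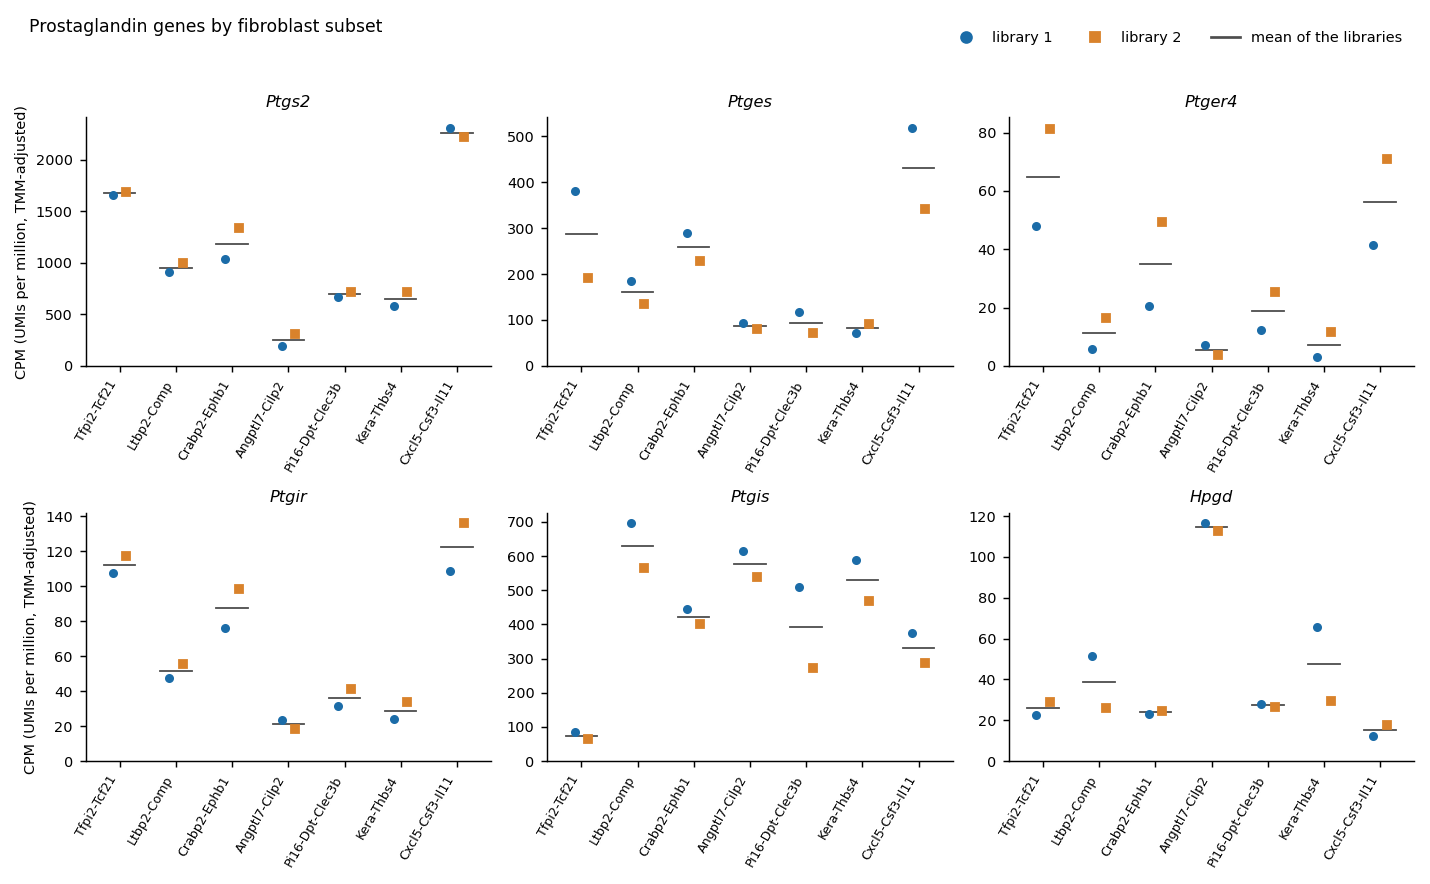
Level of Ptgs2, Ptges, Ptger4, Ptgir, Ptgis and Hpgd (CPM, TMM scale) in 7 subsets of fibroblast-like cells, named by their marker genes. Points are the 2 libraries and the line is their mean. Ptgis was at 84.6 and 63.5 in the Tfpi2-Tcf21 subset, where Ptgir was at 107 and 117.

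Within endothelial-like cells the cyclooxygenases and prostacyclin synthase were higher in venous-like than in capillary-like barcodes. Ptgs2 was at 660 and 686 CPM in the 68 and 79 venous-like barcodes (Selp, Ackr1, Nr2f2) and at 36.7 and 51.5 in the 359 and 487 capillary-like ones (Plvap, Rgcc, Kdr). Ptgs1 was at 146 and 204 against 40.4 and 50.7, and Ptgis at 130 and 140 against 17.3 and 8.90. None of the 3 overlapped between the beds. The log2 differences were 3.94 ± 0.14 for Ptgs2 (adjusted p = 7.46e-13), 1.94 ± 0.15 for Ptgs1 (adjusted p = 2.45e-08) and 3.43 ± 0.25 for Ptgis (adjusted p = 1.37e-08). Of the 7 members tested these 3 were called higher, against 4.35% of 9807 genes, and 0 lower, against 5.83%, also with DESeq2 and at an unadjusted p below 0.05, while Ptges, Ptgds, Ptger4 and Ptgir did not pass. The fit had 1 residual degree of freedom and took its spread largely from all genes. The Ptgis difference with free RNA subtracted was 4.35 and did not pass (adjusted p = 0.186). Fibroblast markers summed to 72.0 and 72.5 in venous-like and 74.9 and 216 in capillary-like barcodes. Arterial-like barcodes, 14 and 13, were too few to be tested.

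**Figure D4:**
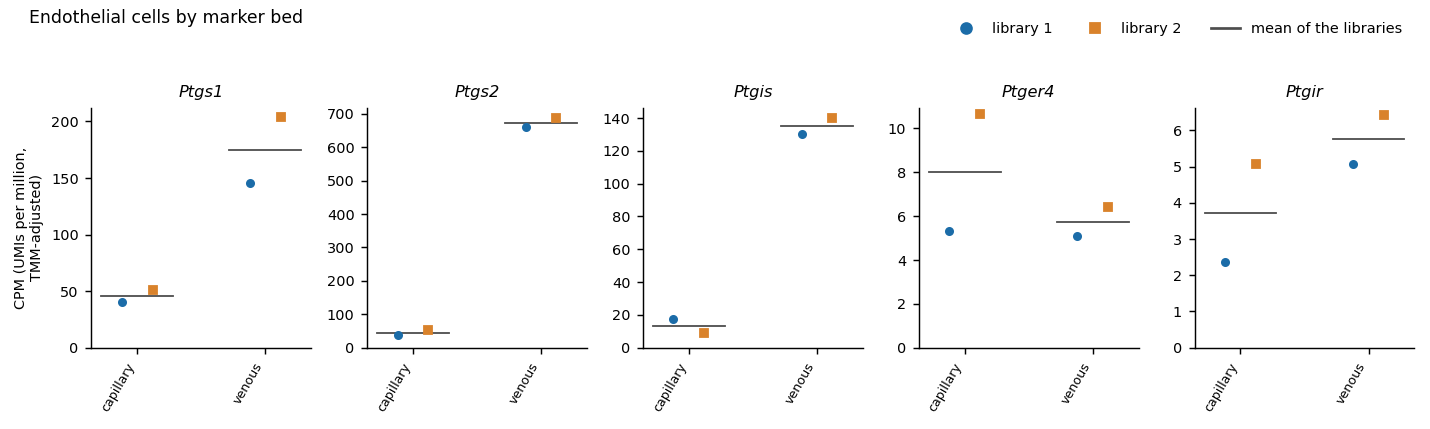
Level of Ptgs1, Ptgs2, Ptgis, Ptger4 and Ptgir (CPM, TMM scale) in capillary-like and venous-like endothelial barcodes, with a point for each library. Ptgs2 was at 660 and 686 in venous-like and at 36.7 and 51.5 in capillary-like barcodes.

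Barcodes with a Ptgs2 UMI were set beside those without one, in unscaled CPM and with no test. Among fibroblast-like barcodes, 2803 and 4913 had one and 1195 and 1319 had none. Ptges was at 289 with and 103 without in library 1 and at 218 and 107 in library 2. Pla2g4a, the phospholipase that releases arachidonic acid, was at 91.6 with and 26.3 without, and at 101 and 42.6. Both were thus higher in barcodes with a Ptgs2 UMI in both libraries. Ptgir was at 72.4 with and 35.3 without, and at 97.5 and 47.5, while Hpgd was at 21.3 with and 82.7 without, and at 26.2 and 59.0. The inflammatory list summed to 4970 with and 1782 without, and to 3300 and 1473. The 12 immediate early genes (Fos, Fosb, Jun, Junb, Egr1, Atf3, Ier2, Ier3, Dusp1, Zfp36, Nr4a1, Btg2) went the other way, 6970 with and 9328 without, and 6274 and 8747. The fibroblast markers Dcn, Col1a2 and Col3a1 were lower with a Ptgs2 UMI, 14127 against 29058 and 15380 against 26597, and their part in these differences was not tested. The median depth was 8063 with and 7210 without, and 8729 and 7135, and depth was not matched between them.

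The same split in other classes gave related values. In pericyte-like barcodes Ptges was at 203 with and 32.1 without a Ptgs2 UMI, and at 89.7 and 28.8, while fibroblast markers were also higher with one, 1603 against 713 and 2397 against 1153. In endothelial-like barcodes Ptgis was at 100 with and 14.5 without, and at 51.8 and 13.6. Fibroblast markers moved with it, 224 against 44.6 and 624 against 91.3, and their part in the Ptgis values was not tested. Of the endothelial-like Ptgs2 UMIs, the venous-like barcodes held 390 of 586 and 427 of 845. For Ptgis they held 77 of 170 and 87 of 169, and the part of the bed was not tested either. Macrophage-like Hpgd was lower with Ptgs2, 144 against 314 and 137 against 172.

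Of 30 other genes of the pathway, 25 were tested, with 37 higher and 44 lower calls over the 7 classes. Macrophage-like cells had 6 higher and 7 lower, where 19.8% and 21.1% of all genes were. They held the leukotriene genes Alox5, at 18.2 and 15.1 CPM (8.27 ± 0.46 higher), and Alox5ap, at 385 and 295 (6.20 ± 0.23), and the thromboxane synthase Tbxas1, at 38.6 and 39.4 (6.51 ± 0.31). Endothelial-like cells had 6 higher (15% of all genes) and 8 lower (19.5%). Alox12, a lipoxygenase, was at 57.9 and 47.5 there (6.85 ± 0.23), the prostaglandin transporter Slco2a1 at 121 and 95.3 (5.23 ± 0.19) and the thromboxane receptor Tbxa2r at 24.9 and 16.6 (4.61 ± 0.26). In RPE-like cells 8 were higher (26.3%) and 10 lower (23.5%). Their secreted phospholipase Pla2g5 was at 374 and 314 (6.21 ± 0.24) and the constitutive synthase Ptges2 at 72.0 and 55.7 (3.15 ± 0.11), while Pla2g4a was 2.79 ± 0.23 lower on the log2 scale.

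The remaining classes had other sets. Several of these counts are near the share over all genes. In melanocyte-like cells, with 6 higher (14.7%) and 5 lower (11.3%), Mgll, a monoglyceride lipase, was at 1856 and 1433 CPM (4.28 ± 0.14) and the haematopoietic prostaglandin D synthase Hpgds at 79.3 and 88.2 (3.47 ± 0.13). Both prostaglandin D synthases were thus called higher in melanocyte-like cells. Hpgds was highest in macrophage-like cells, however, at a mean of 386 CPM against 83.8 in melanocyte-like cells. In fibroblast-like cells, with 5 higher (17.1%) and 5 lower (6.31%), Pla2g4a was at 77.7 and 81.4 (2.70 ± 0.13) and the EP1 receptor gene Ptger1 at 26.2 and 20.5 (3.11 ± 0.16). Ptger1 was also higher in pericyte-like cells, at 19.3 and 16.1 (2.63 ± 0.18), which had 3 higher (12.9%) and 5 lower (9.26%). Smooth muscle-like cells had 3 higher (12.4%) and 4 lower (7.29%), with the EP3 receptor gene Ptger3 higher by 2.97 ± 0.62. Its level there was low, at 3.47 ± 2.81 CPM (mean ± SD of the libraries), and below the 5.14 ± 2.38 of fibroblast-like cells.

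**Figure D5:**
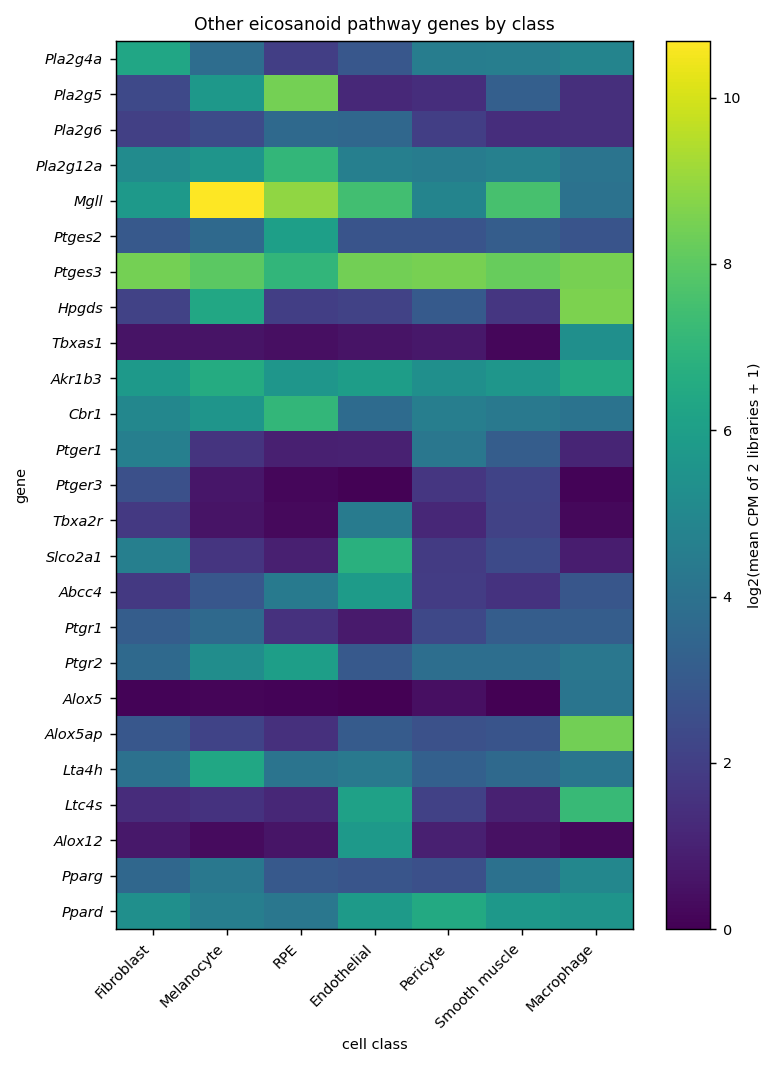
Mean level, as log2 of CPM plus 1 (colour), of 25 other genes of the pathway (rows) in the 7 classes (columns). Alox5 and Tbxas1 were highest in macrophage-like, Slco2a1 and Tbxa2r in endothelial-like and Pla2g5 in RPE-like cells.

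Genes with the most similar profiles were read as a description over the 14 class and library profiles, which share 2 libraries. The gene nearest to Ptgs2 among all those tested was Pla2g4a (Pearson r = 0.972), followed by Zfp451 (0.952) and Enpp1 (0.945). Nearest to Ptgir were Olfml2b (0.991) and the endothelin receptor gene Ednra (0.991), and nearest to Ptgds were Car14 (0.987), Cntf (0.985) and Rpa1 (0.981). Ptger4 was nearest to Tgfbi (0.981), Ptger2 to Medag (0.970), Ptgs1 to Fli1 (0.962), Ptgfr to Kcne1l (0.949), Ptges to Gpc3 (0.945), Ptgis to Nog (0.934) and Hpgd to Galns (0.926).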

How the data were processed

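UMI counts per gene and barcode were deposited by the authors for 2 libraries with 32285 genes. Cell Ranger made them, and its version is 4 per the file headers. The submitters' processing notes give version 2.1.1 and the genome build mm10. Which annotation was used is not stated in what was read here. Positions are from GENCODE M21 (GRCm38). The members and gene lists were chosen with earlier results of these data known.

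Barcodes were kept from 1000 UMIs and 500 genes upward, unless mitochondrial UMIs exceeded 20%. A class needed 5 UMIs of its 3 markers (Dcn, Col1a2, Col3a1 for fibroblast-like, Dct, Pmel, Mlana for melanocyte-like, Rpe65, Rgr, Rlbp1 for RPE-like, Cdh5, Pecam1, Egfl7 for endothelial-like, Rgs5, Kcnj8, Higd1b for pericyte-like, Myh11, Cnn1, Acta2 for smooth muscle-like and C1qa, Csf1r, Cd68 for macrophage-like cells) and more than any other class. Doublets were left in. Scrublet (scanpy 1.11.5, Python 3.11.15), run for an alternative, marked 217 and 700 barcodes. Free RNA was read from barcodes of at most 100 UMIs, with 4.90% and 4.11% of all UMIs.

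Counts were summed per class and library and tested in R 4.3.3 with edgeR 4.0.16 and its dependency limma 3.58.1. The fit used TMM, filterByExpr, a robust quasi-likelihood test and library as a block, since all classes of a library come from the same animals. The class fit had 6 residual degrees of freedom and a biological coefficient of variation of 0.133. DESeq2 1.42.0, other cell and class limits, no filter, no block, removal of doublets or mixed barcodes and subtraction of free RNA were alternatives. Cells were never replicates. On simulated counts the class fit found 75% of genes changed 2-fold and 87% of those changed 4-fold. The subset fit found 91% and 98% and the bed fit 43% and 79%. Found here means an adjusted p below 0.05 in the right direction, without the log2 limit that a call needs. Among unchanged genes, 7 passed in the class, 8 in the subset and 9 in the bed fit. The simulation gave unchanged genes equal mean shares in all groups and all genes the same coefficient of variation. The data differ from that, so these figures need not hold for them. Named genes were the 10 members, the called pathway genes with at most 3 per direction and class by size, and the 3 genes with the highest Pearson r to each member, of which some are printed. Intervals and limits cover counting error only.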

Additional observations from a re-analysis of the deposited data

Results flagged for a closer look

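Members were also found in barcodes that fell in none of the 7 classes. Each pair of values below (CPM without TMM scaling, library 1 and then library 2) lay above the level in free RNA and above 3 UMIs in both libraries, and none was tested. Ptger4 was at 24.8 and 42.0 in barcodes led by T and NK markers, at 55.1 and 46.5 in those led by B cell markers and at 49.4 and 128 in those led by dendritic cell markers. In barcodes led by keratin epithelium markers Ptgs1 was at 91.1 and 66.0 and Ptges at 333 and 408, although library 1 held only 12 such barcodes. In the 6 and 28 barcodes led by ciliary epithelium markers Ptgds was at 32283 and 15382. The 392 and 410 barcodes led by none of the other types held Ptgs2 at 695 and 703, Ptges at 219 and 147, Ptgir at 105 and 123 and Ptger4 at 58.6 and 78.1. The same barcodes held Hpgd at 31.4 and 26.0, Ptger2 at 21.7 and 19.8 and Ptgfr at 9.66 and 5.58. They had too few markers or tied ones. Of all barcodes outside the classes, 26 and 32 had tied class markers in sufficient number.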

How the results depend on the processing

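Over 91 single results, 877 of 910 values from other settings kept their direction and side of the threshold, 22 lost the call, 6 gained one and 5 turned sign. With free RNA subtracted, Ptgds in fibroblast-like cells turned to 2.74, Ptgis in melanocyte-like cells to 0.29 and Ptgis in endothelial-like cells to 0.0825. Ptgds in the Kera-Thbs4 subset turned to -0.44 with doublets removed and to -0.38 with mixed barcodes removed. The cause was not tested. A highest class stood above the next for 7 members, and for 4 with free RNA subtracted. The log2 ratio of synthesis to receptors without Ptgds was 3.08 in melanocyte-like, 5.90 in RPE-like, 3.98 in endothelial-like, 0.44 in pericyte-like, 1.34 in smooth muscle-like and 2.06 in macrophage-like cells. All ratios that follow have Ptgds in the sum. With doublets removed this ratio with Ptgds was 11.80 in melanocyte-like and 15.33 in RPE-like cells. With free RNA subtracted it was 4.07 in endothelial-like, 0.14 in pericyte-like, 2.87 in smooth muscle-like and 1.94 in macrophage-like cells. With a class minimum of 10 marker UMIs it was 0.98 in pericyte-like and 2.83 in smooth muscle-like cells, and with mixed barcodes removed 0.11 and 3.32. In single libraries it ranged from 9.13 to 10.68 in melanocyte-like and from 1.02 to 1.15 in pericyte-like cells. Counts of calls could not be made from 1 library. Without the replicate block, there were 25 higher and 30 lower calls by class, and lower Ptgfr in Tfpi2-Tcf21 (-1.20, adjusted p = 0.0593) and Ptger4 in Kera-Thbs4 (-1.64, adjusted p = 0.157) did not pass, at about the same size.

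Among the limits are depth, purity and the pooling of animals. Rare receptors rested on few UMIs outside fibroblast-like, pericyte-like and smooth muscle-like cells. The free RNA share estimated from rod genes reached 18.9% in pericyte-like cells of library 2. That share of the free RNA level of Ptgds would exceed the Ptgds level of those cells, so the estimate is too high there. Values with free RNA subtracted can therefore be overcorrected. Each library pooled only a male and a female, so variation between animals was not separated.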
